A study of Mus musculus with 8 samples.

Results

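The genes described here are 10 genes of the Notch pathway, namely the receptors Notch1 and Notch2, the ligand Jag1, the nuclear factors Rbpj, Maml1, Maml2 and Maml3, and the target genes Hes1, Hes6 and Hey1, out of 21887 protein-coding genes. For each of them, the called peaks lying inside the gene or within 1 kb of its start or end were collected from 6 chromatin immunoprecipitation (IP) libraries. The genes were chosen by the presence or absence of peaks in these same lists, so their counts and levels are descriptions and carry no test. The libraries came from C2C12, an established mouse myoblast line, and were made with a polyclonal rabbit antibody against APOBEC2, a member of the AID/APOBEC family of cytidine deaminases found mainly in muscle. Differentiation was induced by changing to medium with 2% horse serum, and 3 IP libraries and 1 input were made at each of 34 h and 14 h. The growth protocol gives the earlier harvest as 24 h, so the label of 14 h is uncertain. The names of the peaks carry the tag GFPsh in all 6 lists, which the labels do not explain. No IP of APOBEC2-deficient cells and no IP with an unrelated antibody was analysed here. The labels do not say that the libraries came from separate cultures, so the spread between them may be technical.

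Notch signalling passes between neighbouring cells. A ligand of the Jagged or Delta family on one cell pulls on a Notch receptor on the next, proteases then release the intracellular part of the receptor, and this part enters the nucleus. There it joins the DNA-binding protein RBPJ and a Mastermind co-activator and switches on target genes, of which the Hes and Hey genes encode basic helix-loop-helix repressors. In myoblasts and muscle stem cells the pathway is known for holding back differentiation.

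Promoter sequences show the ground on which the peaks at gene starts lay. RefSeq promoter windows of GRCm38.p6, which shares its primary assembly with mm10, the build of the peak lists, were matched for 8 of the 10 genes. Hes1 and Hey1 had none. A window runs from 250 bases before to 50 bases after an annotated start. Maml1 (chr11:50292287-50292586, minus strand) carried a peak in all 3 libraries of 34 h, and Notch2 (chr3:98013288-98013587, plus strand) carried one in 2 libraries of 34 h and 1 of 14 h. Rbpj (chr5:53590096-53590395, plus strand) carried a peak in 1 library of 34 h, and Notch1 (chr2:26503773-26504072, minus strand) and Jag1 (chr2:137116471-137116770, minus strand) carried none. Capitals mark exact matches on either strand to TGGGAA (the RBPJ core), GGGCGG (the GC box bound by SP and KLF factors) and CCAAT (bound by NF-Y).
Maml1: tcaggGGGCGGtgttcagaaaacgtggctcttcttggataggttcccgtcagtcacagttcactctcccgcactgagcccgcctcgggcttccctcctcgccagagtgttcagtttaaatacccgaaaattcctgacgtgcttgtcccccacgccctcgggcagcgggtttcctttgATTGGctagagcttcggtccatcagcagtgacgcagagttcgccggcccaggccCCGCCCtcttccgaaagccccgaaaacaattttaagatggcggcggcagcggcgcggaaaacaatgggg
Notch2: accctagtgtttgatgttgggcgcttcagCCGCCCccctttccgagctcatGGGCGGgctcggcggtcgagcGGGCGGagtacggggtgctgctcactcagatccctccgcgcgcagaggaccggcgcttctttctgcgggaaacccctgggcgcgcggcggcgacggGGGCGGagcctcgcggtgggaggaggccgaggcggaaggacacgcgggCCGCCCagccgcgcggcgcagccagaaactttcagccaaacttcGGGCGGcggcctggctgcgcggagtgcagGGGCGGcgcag
Rbpj: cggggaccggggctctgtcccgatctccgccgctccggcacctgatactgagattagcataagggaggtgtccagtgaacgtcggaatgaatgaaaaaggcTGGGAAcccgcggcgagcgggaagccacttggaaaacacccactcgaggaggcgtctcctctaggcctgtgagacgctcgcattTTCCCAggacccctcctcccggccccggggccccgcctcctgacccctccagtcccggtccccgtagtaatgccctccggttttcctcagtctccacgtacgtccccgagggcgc
Notch1: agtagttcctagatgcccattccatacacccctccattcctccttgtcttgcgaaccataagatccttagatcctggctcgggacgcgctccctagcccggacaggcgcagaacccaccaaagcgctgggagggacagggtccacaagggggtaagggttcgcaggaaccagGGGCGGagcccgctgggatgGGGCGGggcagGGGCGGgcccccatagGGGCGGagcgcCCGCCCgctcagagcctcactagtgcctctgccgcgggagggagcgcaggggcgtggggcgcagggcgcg
Jag1: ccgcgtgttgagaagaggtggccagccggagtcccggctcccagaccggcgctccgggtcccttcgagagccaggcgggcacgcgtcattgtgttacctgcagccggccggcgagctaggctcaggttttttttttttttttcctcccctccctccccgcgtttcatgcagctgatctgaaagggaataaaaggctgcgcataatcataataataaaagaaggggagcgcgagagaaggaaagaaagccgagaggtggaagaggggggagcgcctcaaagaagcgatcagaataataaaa

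The windows differed in what they held. Maml1 had 2 GC boxes, with first bases at positions −245 and −19 where 0 is the annotated start, and 1 CCAAT at −73. Notch2 had 7 GC boxes and no CCAAT, and Notch1, with no peak, had 5 GC boxes and no CCAAT. The printed Rbpj window had 2 matches to the RBPJ core, at −149 and −65, and neither of the other motifs. A second Rbpj window overlapping it (chr5:53590236-53590535) also carried a peak in 1 library of 34 h. It had 1 RBPJ core at −205 and 1 GC box at 44, counted from its own start. Jag1 had none of these 3. The RBPJ core was found in 25.6% of all 32851 promoter windows, the GC box in 35.7% and CCAAT in 37.4%. TTTGAA, the core of the cell cycle homology region, was in 17.9% of windows, and the E2F motif GGCGGGAA in 2.19%, and neither was in any of the 5 windows printed. The GC content was 59.3% for Maml1, 73.0% for Notch2, 64.7% for Rbpj, 68.3% for Notch1 and 55.7% for Jag1, with a median of 52.7% over all windows. A match is a string of letters and does not show that a factor was bound there.

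At 34 h, 4 of the 10 genes had a peak in at least 2 of the 3 libraries. They were Hes1, Maml1, Maml3 and Notch2, and 9.01% of all protein-coding genes met the same rule. At 14 h, 0 of the 10 did, against 4.27% of all protein-coding genes. Hes1, Maml1 and Maml3 had a peak in every library of 34 h and in none of 14 h, a pattern shown by 1.04% of all genes. A peak in all 3 libraries of a time was found for 3.95% of all genes at 34 h and 2.96% at 14 h. No gene of the 10 had the opposite pattern, which 0.0366% of all genes had. Rbpj and Hes6 had peaks in IP 2 of 34 h alone. Counting any library, 6 of the 10 had a peak at 34 h, against 19.1% of all genes, and 1 of the 10 at 14 h, against 6.96%. Notch1, Jag1, Maml2 and Hey1 had no peak in any of the 6 libraries, as was the case for 79.8% of all genes. Because the genes were picked with these peaks in view, nothing is read from the difference between their counts and the shares of all genes. A gene with no called peak is also not shown to be unbound.

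**Figure D1:**
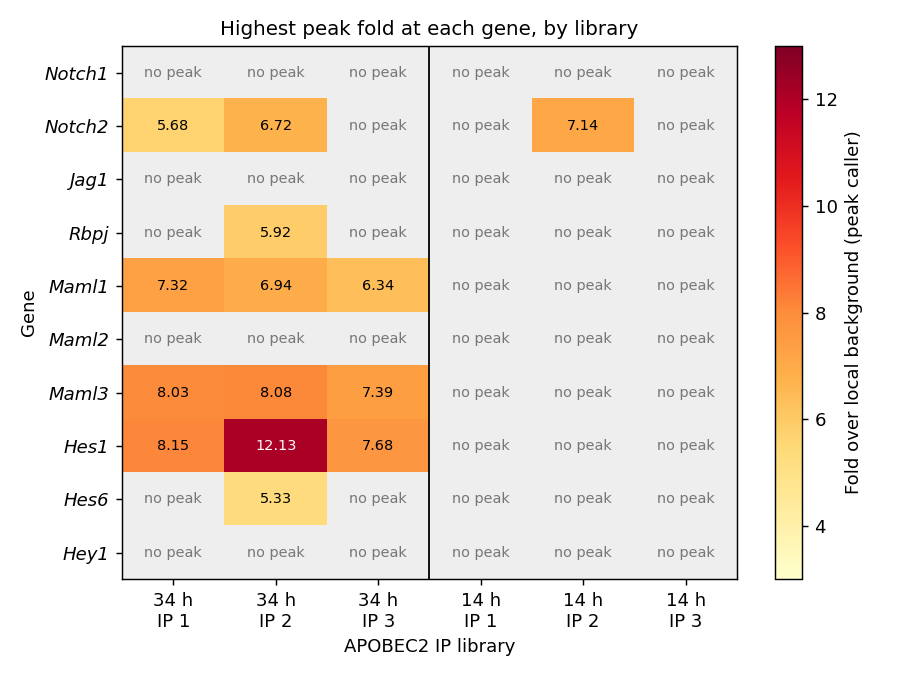
Highest peak-caller fold over local background (colour and printed value) at each of the 10 genes (rows) in each APOBEC2 IP library (columns, 34 h left of 14 h); grey cells have no called peak. Filled cells lie mostly at 34 h, and the highest value is 12.1 at Hes1 in IP 2 of 34 h.

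The lists themselves were of unequal length, which bears on every count. Those of 34 h ran to 2209, 5025 and 1068 peaks for IP 1, IP 2 and IP 3, and those of 14 h to 768, 1327 and 797. An index of depth, the lowest background of a list divided by the width of its narrowest peak, was 0.985 to 1.17 relative to IP 1 of 14 h. It is no count of reads, and the part of sequencing depth in the list lengths was not tested. The genes had 21 peaks in all, of which 12 came from IP 2 of 34 h, the longest list, 5 from IP 1 and 3 from IP 3 of 34 h, and 1 from IP 2 of 14 h. Merged over libraries these made 12 regions, of which 4 touched a 1 kb window around a gene start or end and 8 lay in a gene interior. Of the 12, 5 were found in at least 2 libraries of 34 h and 7 in a single library. The part of list length in the difference between times was not tested beyond the setting with lists of equal length. Every list was therefore also shortened to its 768 most significant peaks. Hes1 was then the one gene of the 10 with a peak in every library of 34 h and none of 14 h, as were 0.192% of all genes. In at least 2 libraries of 34 h, Hes1, Maml1 and Maml3, 3 of the 10, then had a peak, against 3.16% of all genes. At 14 h 0 did, against 3.76%, so the share of all genes was then no longer higher at 34 h.

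Hes1, a target gene that Notch signalling switches on and whose protein represses other genes, gave the highest fold of the 10 genes. By −log10 p it did not lead in every library, with 16.2 in IP 1 of 34 h against 18.5 at Maml1 and 17.5 at Maml3, and 14.9 in IP 3 against 15.4 at Maml3. The peaks lay at the lower-coordinate end of the gene on chromosome 16 (30065081 to 30065391 over libraries, for a gene that spans 30065357 to 30067796), which is the end where transcription of Hes1 begins. In IP 1 and IP 3 the peak ended before the first base of the gene, at 30065339 and 30065282, and in IP 2 it reached into the gene. The peak-caller fold over local background was 8.15 in IP 1, 12.1 in IP 2 and 7.68 in IP 3 of 34 h, a mean of 9.32 ± 2.44 (SD, n = 3). IP 2 stood above the other libraries of 34 h, and in all 3 the fold exceeded the third quartile of its list, which lay between 6.98 and 7.43. By −log10 p the peak ranked within the top 25.9% of the list in IP 1, 7.84% in IP 2 and 37.1% in IP 3. Summits lay at −172, −108 and −163 from that boundary, within a span of 64 bases.

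The number of fragments piled up at a summit, and the background expected there, can be worked out from a peak's fold and p-value, and a solution was found for all peaks. At Hes1 the summit stood on 20 fragments in IP 1 of 34 h (exact 95% Poisson interval 12.2 to 30.9), 34 in IP 2 (23.5 to 47.5) and 19 in IP 3 (11.4 to 29.7). The background was 1.58, 1.89 and 1.61 fragments. These intervals overlap and cover counting error only. In the 14 h lists the least significant peak had a −log10 p of 7.08 in IP 1, 5.34 in IP 2 and 6.55 in IP 3. If the background at Hes1 had been that of 34 h, summits of 12, 10 and 11 fragments would have reached those values. Fewer fragments than that at 14 h cannot be told from none.

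**Figure D2:**
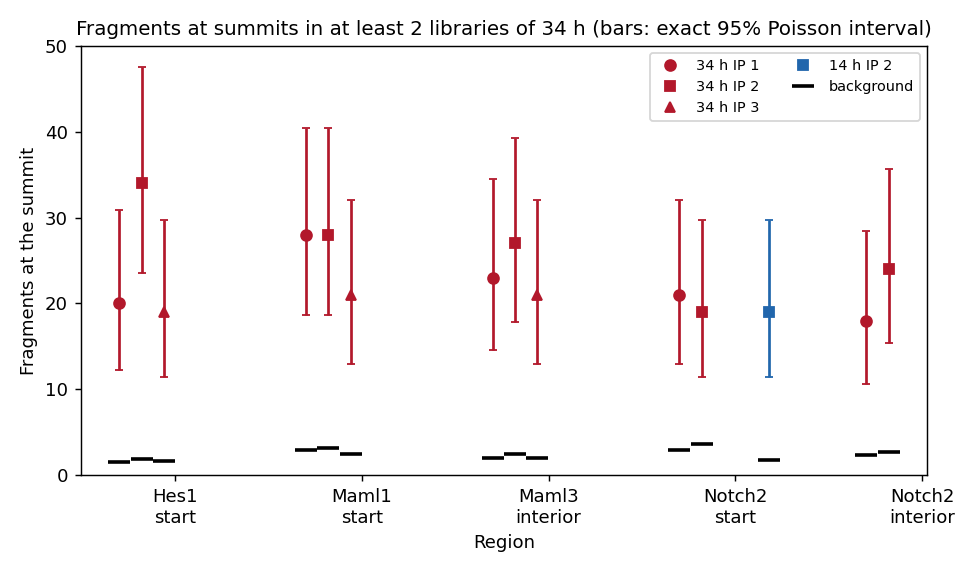
Fragments at the summit (points, with exact 95% Poisson intervals as bars) and local background (black dashes) for the 5 regions found in at least 2 libraries of 34 h, by library; red marks 34 h and blue 14 h, and the shape gives the library number. Hes1 in IP 2 of 34 h stands highest, at 34 fragments. Only called peaks are drawn, so every summit stands above its background by selection.

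Among the Mastermind genes, whose proteins bridge the receptor fragment and RBPJ to histone acetyltransferases, Maml1 and Maml3 had peaks in all libraries of 34 h and Maml2 had none. At Maml1 the region (chromosome 11, 50292177 to 50292705) covered the promoter window printed above. The fold was 7.32 in IP 1, 6.94 in IP 2 and 6.34 in IP 3, a mean of 6.87 ± 0.495 (SD, n = 3), and the libraries thus differed little. Summits lay at −63, −148 and −173 from the annotated start of that window, on either side of the CCAAT at −73 and between the GC boxes. This start is internal to the gene. From the upper-coordinate end of Maml1, at 50293131, the summits lay at −732, −647 and −622. The summits stood on 28, 28 and 21 fragments over backgrounds of 2.96, 3.18 and 2.47. At that background 13 to 15 fragments would have sufficed for a place in the 14 h lists. Without a margin around the genes, Maml1 and Maml3 kept a peak in every library of 34 h and none of 14 h, as did 0.736% of all genes. Hes1 did not, its peaks in IP 1 and IP 3 of 34 h lying before the first base of the gene.

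**Figure D3:**
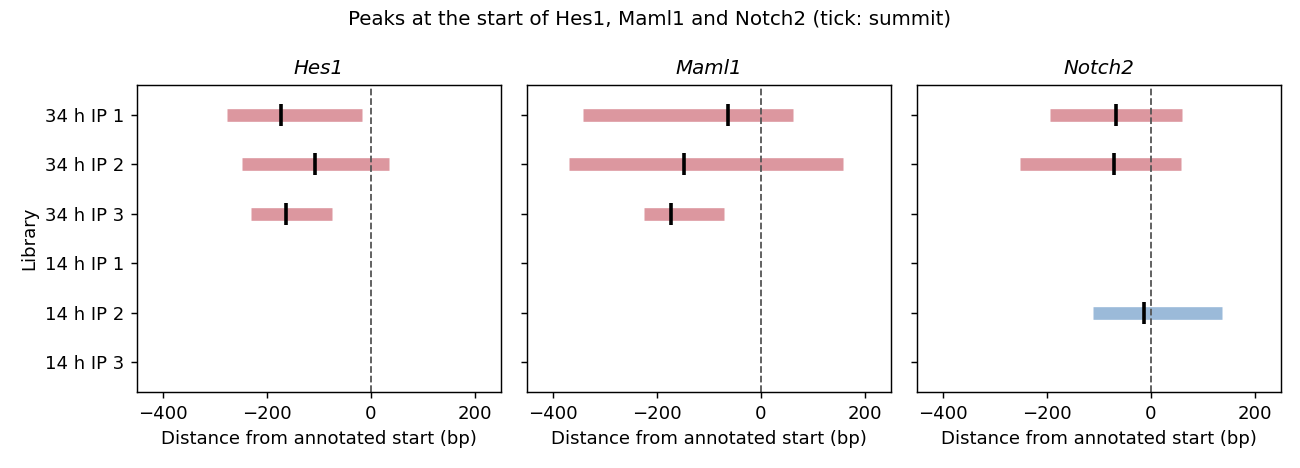
Extent of each called peak (bars) and its summit (black tick) at Hes1, Maml1 and Notch2, in bases from an annotated start (dashed line). Negative values lie before it. For Hes1 the line is the lower-coordinate gene boundary, and for Maml1 a start internal to the gene. Each row is a library, 34 h above 14 h, and an empty row has no peak. All summits lie between −173 and −13.

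At Maml3 the region shared by all libraries of 34 h (chromosome 3, 51943644 to 51944045) lay deep inside the gene, 161 kb from its upper-coordinate end, where its annotated start lies. Maml3 is 418 kb long, and exons and introns were not resolved. The fold was 8.03 in IP 1, 8.08 in IP 2 and 7.39 in IP 3 of 34 h, a mean of 7.83 ± 0.384 (SD, n = 3), on 23, 27 and 21 fragments. Its spread was the smallest of the 3 genes with a peak in every 34 h library. IP 2 of 34 h had 2 further peaks inside Maml3, with folds of 4.28 and 6.65. The first of them lay over the lncRNA gene Gm46803. The promoter window of Maml3 held no peak. Maml2, at 413 kb nearly as long, had no peak, like 67.5% of the 2429 genes of 100 kb or longer, and the nearest one outside it was 117 kb away. Length gives a gene more room for peaks, and of these longer genes 12.8% had a peak in at least 2 libraries of 34 h. A peak in every library of 34 h and none of 14 h was found for 1.81% of them, against the 1.04% of all genes. Counting only windows of 1 kb around gene starts and ends left Hes1 and Maml1 with that pattern, and 0.781% of all genes. By those windows 3 of the 10 genes had a peak in at least 2 libraries of 34 h, against 7.36% of all genes, and 0 in at least 2 of 14 h, against 3.87%.

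Notch2 was the receptor with peaks and the one gene of the 10 with a peak at 14 h. At its start (chromosome 3, 98013287 to 98013675) the fold was 5.55 in IP 1 and 4.31 in IP 2 of 34 h and 7.14 in IP 2 of 14 h. Both times thus had a peak there, in 2 of 3 and in 1 of 3 libraries. Summits stood on 21 and 19 fragments at 34 h and on 19 at 14 h, over backgrounds of 2.96 and 3.64 at 34 h and 1.80 at 14 h. The fragment numbers were close and the backgrounds were not, so the higher fold at 14 h came with a lower background. The summits at −66, −70 and −13 fell among the GC boxes of the printed window. A region 10.9 kb inside the gene (98024404 to 98024638), which overlies the lncRNA gene Gm40103, was found in the same 2 libraries of 34 h with folds of 5.68 and 6.72 and in none of 14 h. IP 2 of 34 h had 2 weaker peaks further in, with folds of 4.72 and 3.83. Without IP 1 or without IP 2 of 34 h, Notch2 no longer had a peak in both libraries left, and the count of the 10 genes at 34 h was 3, with 4.50% and 3.98% of all genes.

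**Figure D4:**
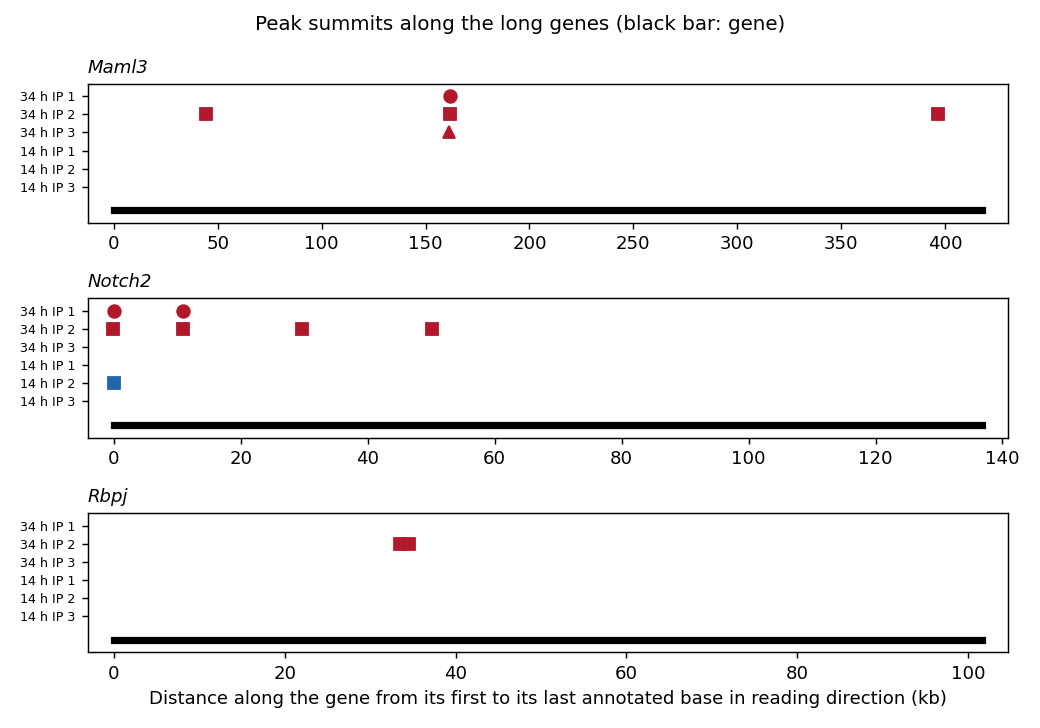
Summits of called peaks along Maml3, Notch2 and Rbpj, in kb from the first to the last annotated base in reading direction (black bar: the gene), with a row per library, 34 h above 14 h. At Maml3 the 3 libraries of 34 h share 1 interior position 161 kb in, and Notch2 has peaks at its start in libraries of both times.

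Rbpj, the DNA-binding factor of the pathway, had 2 peaks in IP 2 of 34 h alone. The stronger had a fold of 5.92 on 16 fragments (chromosome 5, 53589131 to 53589465). The other had a fold of 5.52 on 14 fragments (53590199 to 53590438). Its summit lay at −30 from the annotated start of the window printed above, which is internal to the gene, and 34.5 kb from the lower-coordinate end. Hes6, which encodes a relative of HES1 known to promote differentiation, also had a peak in IP 2 of 34 h alone, with a fold of 5.33 on 17 fragments (chromosome 1, 91414172 to 91414500). Its summit lay 314 bases outside the gene. These peaks ranked at 62.2%, 78.0% and 69.4% from the top of that list of 5025. With 1 library each, none of them was found again.

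Jag1, the ligand of the group, had its nearest peak 13.5 kb outside the gene, in IP 2 of 34 h, with a fold of 6.20. This was the closest peak to any of the 10 genes beyond the 1 kb limit. For Hey1 the nearest peak in any library was 257 kb away and for Notch1 407 kb. For Hes1, apart from the peak at its start, it was 56.2 kb away. Among the 21 peaks inside the limit, the fold ran from 3.83 at the innermost peak of Notch2 to 12.1 at Hes1, with a median of 6.65. The median fold over all peaks of a list was 5.70 to 6.03 at 34 h and 7.99 to 8.47 at 14 h.

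Genes with a pattern like that of Hes1 were sought among the 227 genes with a peak in every library of 34 h and none of 14 h. By Euclidean distance over the log2 folds of the 3 libraries of 34 h, the nearest were Chd2 (distance 0.06), which encodes a chromatin remodeller, Evi5l (0.14) and H3f3b (0.16), which encodes histone H3.3. They were followed by Eif2ak3 (0.24), which encodes the endoplasmic reticulum stress kinase PERK, and Trim45 (0.33). That their folds are highest in IP 2, as at Hes1, follows from how they were selected. Maml3 lay at 0.59 and Maml1 at 0.87, their folds being even over the libraries. By mean fold Hes1 was number 9 of the 227, Maml3 number 39 and Maml1 number 85.

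The rest of the pathway was followed with 63 further genes drawn from its general description. They were not picked for their peaks, but the 10 genes, chosen with peaks known, were left out of them. That choice bears on the shares of the 63. With the 10 genes put back, 8 of 73 genes had a peak in at least 2 libraries of 34 h. In at least 2 libraries of 14 h, 1 of 73 did. At 34 h, 4 of the 63 (6.35%) had a peak in at least 2 libraries, against the 9.01% of all protein-coding genes, and at 14 h 1 of 63 (1.59%) did, against 4.27%. The 4 were Numb, Tle4, Fbxw7 and Kat2b, and the 1 at 14 h was Neurl1b. Numb, an adaptor that restrains Notch by endocytosis, and Tle4, a Groucho-type co-repressor recruited by Hes proteins, had a peak in every library of 34 h and none of 14 h, as 2 of the 63 (3.17%) against the 1.04% of all genes. The other receptors, Notch3 and Notch4, the 7 other ligands and the 5 glycosylation genes, among them the Fringe genes, had no peak in any library, like 79.8% of all genes. Without IP 1 or without IP 2 of 34 h, where both libraries left had to hold a peak, 2 of the 63 had one at 34 h, and the share of all genes was 4.50% and 3.98%.

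At the start of Numb (chromosome 12, 83921937 to 83922267) the fold was 4.81 in IP 1, 6.99 in IP 2 and 5.47 in IP 3 of 34 h, a mean of 5.76 ± 1.12 (SD, n = 3). At the start of Tle4 (chromosome 19, 14598092 to 14598544) it was 5.65, 7.34 and 6.56, a mean of 6.52 ± 0.842 (SD, n = 3). IP 2 was highest at both, as it was at Hes1. The lncRNA gene Gm31386 also overlaps the region at Numb. Both regions overlie a promoter window, printed here to set beside that of Maml1, which shared their pattern of peaks over libraries. Numb is given at chr12:83921885-83922184 and Tle4 at chr19:14598134-14598433, both on the minus strand of GRCm38.p6, with capitals as above.
Numb: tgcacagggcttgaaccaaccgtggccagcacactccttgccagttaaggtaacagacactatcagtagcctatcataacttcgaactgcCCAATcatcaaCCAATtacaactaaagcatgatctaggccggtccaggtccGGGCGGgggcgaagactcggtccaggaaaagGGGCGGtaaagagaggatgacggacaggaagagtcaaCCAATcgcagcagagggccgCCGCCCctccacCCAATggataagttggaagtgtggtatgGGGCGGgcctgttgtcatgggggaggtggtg
Tle4: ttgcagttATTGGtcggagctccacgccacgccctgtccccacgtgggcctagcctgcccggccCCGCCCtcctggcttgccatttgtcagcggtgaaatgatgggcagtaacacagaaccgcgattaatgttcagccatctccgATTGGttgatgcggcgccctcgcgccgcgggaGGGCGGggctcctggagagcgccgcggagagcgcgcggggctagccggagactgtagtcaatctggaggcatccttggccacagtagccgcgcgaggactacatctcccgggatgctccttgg

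The Numb window had 4 GC boxes and 4 CCAAT, and the Tle4 window 2 of each. These 2 windows and that of Maml1, the 3 with a peak in every library of 34 h, thus held both motifs. None of the 3 held the RBPJ core. Of all windows, 35.7% held the GC box, 37.4% CCAAT and 25.6% the RBPJ core. The share of all windows with both motifs was not counted. Hes1 had the same pattern of peaks but no window. The Neurl1b window, with a peak in 1 library of 34 h and 2 of 14 h, also held both, with 6 GC boxes and 1 CCAAT. An Fbxw7 window with a peak in 2 libraries of 34 h held 2 GC boxes and no CCAAT. Windows without a peak held both motifs as well, as did another one of Hes6 (chr1:91413173-91413472), with 2 matches to each. With so few windows this describes those sequences and no more.

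Fbxw7, a ubiquitin ligase subunit that marks the Notch fragment for destruction, had a peak in IP 1 and IP 2 of 34 h with folds of 6.67 and 6.22, at an annotated internal start (chromosome 3, 84952031 to 84952417). Kat2b, a histone acetyltransferase, had one inside the gene in the same libraries with folds of 6.39 and 4.78 (chromosome 17, 53596426 to 53596704). Neurl1b, a ubiquitin ligase of Notch ligands, had a fold of 5.50 in IP 2 of 34 h and of 9.62 and 8.72 in IP 1 and IP 2 of 14 h. It was the gene of the 63 with more libraries at 14 h than at 34 h, at its start (chromosome 17, 26414620 to 26414888). Its summits stood on 12 fragments at 34 h and 17 in each of the libraries of 14 h.

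Most other peaks of the pathway rested on a single library. Of the 63 genes, 17 had a peak in some library, as did 20.2% of all protein-coding genes, and 11 of the 17 had it in 1 library only, which was IP 2 of 34 h for 10 of them and IP 1 of 34 h for Spen. In IP 2 of 34 h alone, 25.4% of the 63 genes had a peak, against 18.1% of all protein-coding genes. In IP 1 and IP 3 of 34 h the shares were 7.94% and 3.17%, against 9.24% and 4.7% of all genes. At 14 h they were 1.59% in IP 1, 3.17% in IP 2 and 0% in IP 3, against 3.72%, 6.5% and 3.97%. The share of the 63 genes thus lay below that of all genes in 5 of 6 libraries. It rested on 5, 16 and 2 genes in IP 1, IP 2 and IP 3 of 34 h, and on 1, 2 and 0 at 14 h. The 10 genes chosen with peaks known are not among the 63. With those put back, 23 of 73 genes had a peak in some library. Nothing is read from the order of the shares. The peak counted for Hes7 covers the tRNA gene n-TLtag3, the one counted for Cir1 also lies over an end of Scrn3, and the one for Rita1 lies over Ddx54.

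**Figure D5:**
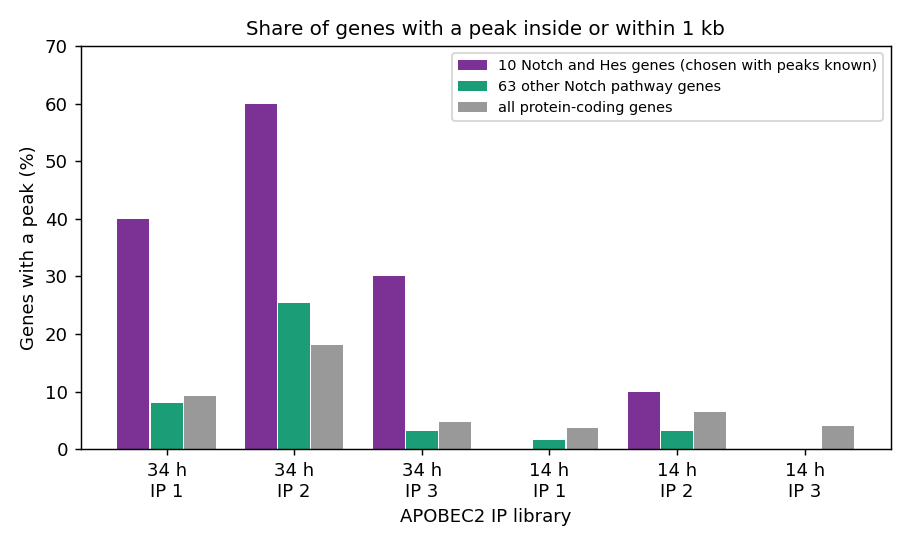
Percentage of genes with a peak inside or within 1 kb, by library (34 h left of 14 h), for the 10 Notch and Hes genes, which were chosen with these peaks known (purple), the 63 other pathway genes (green) and all protein-coding genes (grey). The green bar exceeds the grey one in IP 2 of 34 h, at 25.4% against 18.1%, and in no other library.

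Over libraries, the share of the 63 genes with a peak averaged 12.2% ± 11.7 in libraries of 34 h and 1.59% ± 1.59 in those of 14 h (SD, n = 3 each), a difference of 10.6 percentage points. A two-sided exact permutation test gave p = 0.2. With 3 against 3 libraries it cannot go below 0.1, so it cannot settle whether the times differed. The share of all protein-coding genes was 10.7% ± 6.82 at 34 h and 4.73% ± 1.54 at 14 h, a difference of 5.95 points (exact p = 0.2). With lists of equal length the difference for the 63 genes was 0, and without IP 2 of 34 h it was 3.97 points (exact p = 0.3).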

How the data were processed

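The data are peak lists of 6 APOBEC2 IP libraries of C2C12 cells, 3 at 34 h and 3 at 14 h; the inputs (1 per time) have no list. Groups and replicate numbers come from the sample titles. The submitters' processing notes name Subread for alignment, MACS2 for peak calling and the mm10 build; their versions and the calling threshold are not stated there. Per the deposited peak names, every library was called on its own with the matching input as control. In the deposited lists, fold is IP signal over local background at the summit, as a ratio. Significance is deposited as −log10 of the p-value and of the q-value, another deposited column an integer score 10 times the −log10 q, and the last deposited column the summit offset.

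Gene positions came from the RefSeq table of GRCm38.p6, with 21887 protein-coding genes on the autosomes, X and Y. All 10 genes and all 63 pathway genes matched. A gene had a peak where a peak overlapped it or 1 kb around it by at least 1 base. Genes and lists were chosen with earlier results of these data known. The text names all 10 genes, pathway genes with a peak in at least 2 libraries of a time, and the 5 genes nearest to Hes1; Spen, Hes7, Cir1 and Rita1 were named after their values were seen. Fragments at the summit were solved from fold and p-value to within 0.001 on the −log10 p scale, for 100% of peaks. The depth index is relative, as the lists give no read totals, and rests on equal genome size in all calls. It also takes the narrowest peak as the fragment length and the lowest background as the genome-wide one, neither of which was checked. Summits stood on at least 10 fragments. N boxes (CACNAG) and E boxes (CANNTG) were also counted in promoter windows, on both strands; overlapping matches count separately, and these 2 motifs can overlap each other. The N box was in 42.5% of all windows and the E box in 72.3%. Peak assignment and the fragment solution were tested on simulated data. Python 3.11.15, pandas 2.3.3 and scipy 1.17.1 were used.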

Additional observations from a re-analysis of the deposited data

How the results depend on the processing

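The counts of the 10 genes and of the 63 pathway genes were recomputed with a −log10 q of at least 5, lists of equal length, other gene windows, summits in place of peaks, any or all 3 libraries, and each library left out. The 10 genes with a peak at 34 h numbered 3 to 4 with a library left out (3.98 to 9.01% of all genes), and at 14 h 0 (2.99 to 4.27%). With lists of equal length they numbered 3 at 34 h (3.16%) and 0 at 14 h (3.76%). Those with a peak in every library of 34 h and none of 14 h numbered 3 whichever library was left out, while the share of all genes ran from 1.06% to 1.45% and was 4.11% without IP 3 of 34 h. With lists of equal length they numbered 1 (0.192% of all genes). Inside genes only they numbered 2 (0.736%), and at starts and ends only 2 (0.781%). With any library of a time, 1 of the 10 had a peak at 14 h (6.96%). The pathway genes at 34 h numbered 0 with lists of equal length (3.16% of all genes), 2 inside genes only (7.40%), 2 at starts and ends only (7.36%), 17 with any library (19.1%), 2 with all 3 libraries (3.95%), and 2 to 4 with a library left out (3.98 to 9.01%). At 14 h they numbered 0 inside genes only (3.42%), 2 with any library (6.96%), 0 with all 3 libraries (2.96%), and 0 to 1 with a library left out (2.99 to 4.27%). The difference in pathway share ran from 3.97 to 15.1 points with a library left out (exact p 0.1 to 0.5). Over the other settings it ran from 0 to 12.2 points (exact p 0.1 to 1.0). Over genes with a peak, the correlation of same-numbered libraries' deviations was −0.0552, −0.127 and −0.0466. For libraries of other numbers it ran from −0.0356 to 0.0858. Same-numbered libraries were thus no more alike, but these values cannot show whether they were handled together. With the replicate block, an exact sign-flip test gave 10.6 points and p = 0.25, the smallest 3 pairs allow. Sites under the caller's threshold cannot be told from unbound ones.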
